A study of Mus musculus with 2 samples.

Results

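In all, 10 genes of the AP-1 and immediate-early class were described: *Fos*, *Fosb* and *Fosl2*, *Jun*, *Junb* and *Jund*, *Atf3*, *Egr1* and *Egr2*, and *Ier3*. They were chosen by symbol, and all 10 were found among 22180 genes with a probe set of 1 gene symbol on the array. The samples were 1 culture of RAW264.7 cells labelled HuR-deficient and 1 culture of wildtype RAW264.7 cells, an established mouse macrophage line, each measured on 1 Affymetrix array. The protein HuR, product of *Elavl1*, binds AU-rich stretches of mRNA, and many of the mRNAs it binds are known to be protected from decay. A synthetic double-stranded RNA, poly(I:C) of high molecular weight, had been given to each culture with lipofectamine for 8 hours at a labelled 1 mg/ml. Unstimulated cells were not analysed here, so the comparison is between genotypes at this time point, and the response to the stimulus itself cannot be read from it. The sample title calls the deficient cells HuR-KO (knockout). By what method they were made, and whether they are 1 clone, the labels do not say.

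AP-1 is a family of dimers in which a Jun protein pairs with another Jun, a Fos or an ATF protein through a basic leucine zipper (bZIP), and these dimers bind short palindromic DNA sites. Signals such as MAP kinase activity switch on the immediate-early genes without new protein synthesis, and their mRNAs are typically short-lived, in many cases because of AU-rich elements in the 3′ end. The AU-rich element of *Fos* is a classical model of HuR binding. In macrophages these factors act on cytokine, protease and survival genes. *Ier3* was measured with them as a stress-induced early gene, but it encodes a small survival-related protein and not a DNA-binding factor.

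The regulatory sequence before each start site was read from RefSeq windows of assembly GRCm38.p6. Windows of 250 bases before the start were found for 9 of the 10 genes, 13 windows in all since *Egr2* has 5 annotated starts. *Egr1* was not searched. Searched on both strands were the AP-1 site TGANTCA, the ATF/CREB-type site TGACNTCA, the EGR site GCGNGGGCG and the CArG box bound by SRF. The windows of 4 genes held a match, and none held TGANTCA, which 6.75% of all 32851 windows of this length held. These 4 windows are shown because the 2 genes with the most negative differences below, *Egr2* and *Jun*, are among them and because *Fosb* and *Fosl2* carry the letters of a site for the EGR factors measured here. Capitals mark the match, each sequence runs 5′ to 3′ towards the start, and none of the matches overlapped another.
Egr2: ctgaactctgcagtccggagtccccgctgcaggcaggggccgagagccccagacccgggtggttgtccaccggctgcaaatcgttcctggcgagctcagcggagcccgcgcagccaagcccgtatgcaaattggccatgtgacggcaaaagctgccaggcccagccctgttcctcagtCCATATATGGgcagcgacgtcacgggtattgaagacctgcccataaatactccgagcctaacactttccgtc
Jun: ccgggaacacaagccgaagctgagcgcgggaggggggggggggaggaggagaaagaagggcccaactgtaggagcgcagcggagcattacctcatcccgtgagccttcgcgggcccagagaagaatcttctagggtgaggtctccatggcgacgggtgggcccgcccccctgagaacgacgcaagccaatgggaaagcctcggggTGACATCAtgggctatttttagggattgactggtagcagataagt
Fosb: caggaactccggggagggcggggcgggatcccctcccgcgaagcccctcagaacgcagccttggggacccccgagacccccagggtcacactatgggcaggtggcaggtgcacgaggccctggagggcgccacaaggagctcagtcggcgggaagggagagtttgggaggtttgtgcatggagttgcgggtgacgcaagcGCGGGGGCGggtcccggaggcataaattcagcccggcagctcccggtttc
Fosl2: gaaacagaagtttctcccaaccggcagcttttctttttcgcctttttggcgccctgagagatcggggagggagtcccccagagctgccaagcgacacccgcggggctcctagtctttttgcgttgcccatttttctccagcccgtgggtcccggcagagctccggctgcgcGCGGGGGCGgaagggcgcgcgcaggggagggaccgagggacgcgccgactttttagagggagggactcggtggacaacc
The *Egr2* window is chr10:67537619-67537868 on the plus strand, the third of its 5 in genome order and downstream of other annotated *Egr2* starts. Its CArG box begins at position -72, counted back from the start, and 1.47% of all windows held a CArG box. The same box lies in 3 of the 5 *Egr2* windows, which overlap, and another window held a second box, so there are 2 distinct boxes before this gene. The *Jun* window is chr4:95052223-95052472 on the minus strand, with TGACATCA from position -45, a pattern held by 7.49% of all windows. The *Fosb* window, chr7:19310046-19310295 on the minus strand, and the *Fosl2* window, chr5:32136222-32136471 on the plus strand, held GCGGGGGCG from positions -50 and -79, and 4.70% of all windows held this pattern. The windows of *Fos*, *Junb*, *Jund*, *Atf3* and *Ier3* held none of the 4 patterns. Sequence farther than 250 bases before a start was not searched, so sites there would be missed. A match describes letters and does not show binding.

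The genes were also short. In the same assembly 6 of the 10 span under 5 kb, against 20.6% of 18961 measured protein-coding genes. *Ier3* spans 1.20 kb, *Junb* 1.84 kb and *Jund* 2.88 kb, and the longest, *Fosl2*, spans 21.4 kb. The median over those protein-coding genes was 18.7 kb, and 9 of the 10 lay below it. *Junb* and *Jund* both lie on chromosome 8.

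On the arrays, none of the 10 genes differed by 2-fold or more. *Egr2* and *Jun* were lower in the array labelled HuR-deficient, by 1.53-fold and 1.41-fold, and *Atf3* was 1.26-fold higher. The other 7 differed by less than 1.15-fold in either direction by the probe set used for each gene, but a second probe set of *Jund* differed by -0.42 on the log2 scale. Values are log2 signals normalised by the authors with RMA, and differences are log2 values of the array labelled HuR-deficient minus the wildtype array. With 1 array per group no significance test could be run, and the replicate error is unknown. Beside some differences stands the spread of the 500 genes nearest in mean signal, which is a spread between genes and not between replicates.

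The signal filter asked that the higher of a gene's 2 values reach 4.38, the median over all genes. It passed 11905 genes, 9 of the 10 described here among them, and *Fosb* did not pass. The filter is not a detection call, so passing it does not show that a gene lies above background. At 2-fold, 0 of the 9 were higher and 0 lower in the array labelled HuR-deficient, where the share of all genes that passed was 0.882% for higher and 1.11% for lower, so the count is near the background. At 1.5-fold, 0 of the 9 were higher and 1 was lower, against 5.44% and 5.32% of all genes that passed. Over all 10, 4 differences lay above 0, 5 below and 1 at 0. *Jund* is counted above 0 by its brighter probe set, although its second lay below 0. The median of the 10 was -0.03, or -0.06 with probe sets averaged, against 0.00 over all genes measured.

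**Figure D1:**
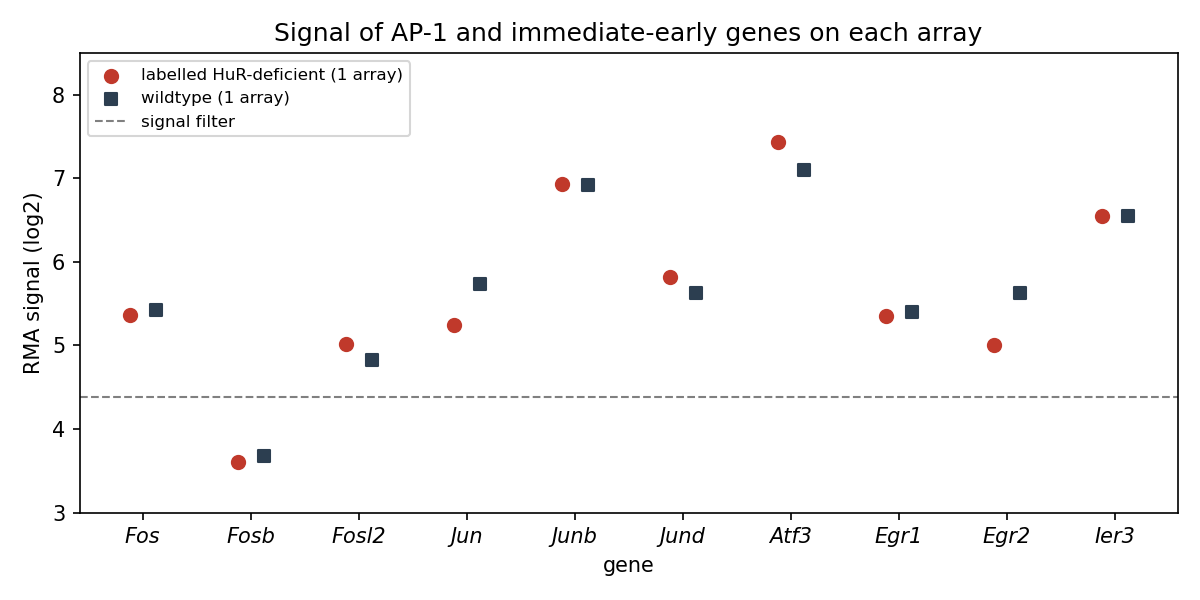
RMA log2 signal (vertical axis) of each gene (horizontal axis) on the array labelled HuR-deficient (circles) and on the wildtype array (squares), 1 array each, with the signal filter at 4.38 as a dashed line. The symbols of a gene lie close together except for *Jun* and *Egr2*, whose circles are lower, and *Atf3*, whose circle is higher. *Fosb* lies under the filter on both arrays. Heights of different genes come from different probes and have no order.

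The targeted gene does not separate the arrays. *Elavl1* had a signal of 7.75 in the array labelled HuR-deficient and 7.68 in the wildtype array, a difference of 0.07, and the position of its probes relative to the disruption is unknown here. Directions below are therefore those of the labels. All 9 macrophage markers examined passed the filter, with signals of 4.53 to 12.48 in the array labelled HuR-deficient and 4.86 to 12.43 in the wildtype array. Their median difference was -0.06, although *Adgre1*, a macrophage surface receptor gene, was higher by 1.57. The filter also passed 4 of 6 markers of T and NK cells, 1 of 3 of B cells, and 3 of 8 of fibroblasts, epithelium and endothelium. The highest signals among these markers were 5.13 in the array labelled HuR-deficient and 5.39 in the wildtype array. Their part in the differences was not tested.

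Among the Fos proteins, which pair with Jun proteins and form no stable dimer alone, the differences were small. *Fos* (Entrez Gene 14281), the founding member, had a signal of 5.37 in the array labelled HuR-deficient and 5.43 in the wildtype array. Its difference of -0.06 was matched or passed in size by 85.1% of all genes that passed the filter. *Fosb* (Entrez Gene 14282), a Fos paralogue also known for short splice forms, had 3.61 in the array labelled HuR-deficient and 3.68 in the wildtype array, both under the filter, so its level was not shown to lie above background. *Fosl2* (Entrez Gene 14284), which encodes Fra-2, had 5.02 in the array labelled HuR-deficient and 4.83 in the wildtype array. Its difference of 0.19 was within the robust SD of genes of similar signal, 0.35. The remaining Fos gene, *Fosl1*, shares its probe set with another symbol and was left out.

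Of the Jun genes, *Jun* had the most negative difference, *Junb* was near 0 and the probe sets of *Jund* disagreed. *Jun* (Entrez Gene 16476), the strongest transcriptional activator of the family, had a signal of 5.24 in the array labelled HuR-deficient and 5.74 in the wildtype array. The difference of -0.50 was larger than the robust SD of the nearest genes, 0.30, but lay inside their middle 95%, from -0.72 to 0.65. Of all genes that passed the filter, 15.8% differed by at least as much. *Junb* (Entrez Gene 16477), a weaker activator that can oppose *Jun*, had 6.93 in the array labelled HuR-deficient and 6.92 in the wildtype array, a difference of 0.01. *Jund* (Entrez Gene 16478), the family member with the steadiest expression in many cells, had 2 probe sets that disagreed. The brighter set, 17502001, read 5.82 in the array labelled HuR-deficient and 5.63 in the wildtype array, a difference of 0.19. The other, 17510127, read 5.47 in the array labelled HuR-deficient and 5.89 in the wildtype array, a difference of -0.42. Averaged, they gave -0.12, so no direction can be given for *Jund*.

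*Atf3* (Entrez Gene 11910) encodes a stress-induced bZIP factor that in macrophages is known to restrain cytokine genes after Toll-like receptor signals. Its signal was 7.43 in the array labelled HuR-deficient and 7.09 in the wildtype array. The difference of 0.34 was the most positive of the 10 genes. It slightly exceeded the robust SD of the nearest genes, 0.30, and 32.4% of all genes that passed the filter differed by as much.

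The 2 EGR genes, zinc-finger factors switched on through SRF, had differences of unlike size. *Egr2* (Entrez Gene 13654) had a signal of 5.01 in the array labelled HuR-deficient and 5.62 in the wildtype array. The value of 5.01 lay under the highest signal of the markers of other cell types on that array, 5.13. The *Egr2* difference of -0.61 was the most negative of the 10. It lay inside the middle 95% of the nearest genes, from -0.67 to 0.71, and 9.63% of all genes that passed the filter differed by at least as much. *Egr1* (Entrez Gene 13653) had 5.35 in the array labelled HuR-deficient and 5.40 in the wildtype array, a difference of -0.06. *Ier3* (Entrez Gene 15937) held the same deposited value, 6.55, on both arrays. Such ties are a feature of the deposited table, where 4.32% of probe sets, and 2.11% of the genes that passed, have equal values, so the tie is no proof of equal mRNA.

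**Figure D2:**
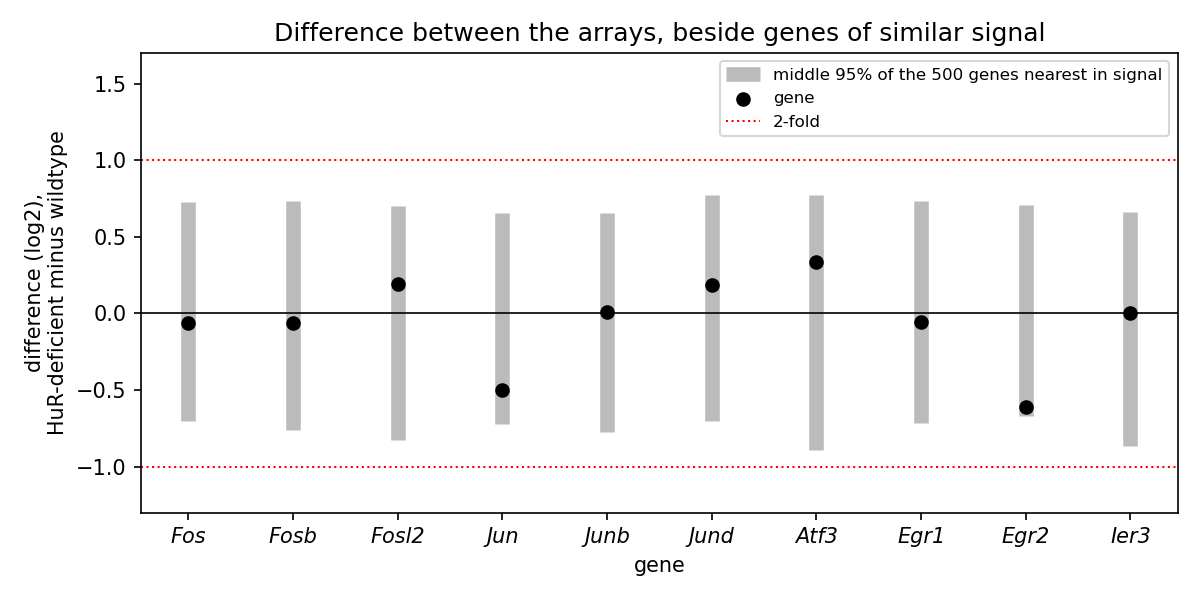
Difference in log2 signal, array labelled HuR-deficient minus wildtype array (vertical axis), for each gene (points; horizontal axis), with the middle 95% of the differences of the 500 genes nearest in signal as grey bars and 2-fold as dotted lines. All 10 points lie inside their grey bars. *Egr2* at -0.61 and *Jun* at -0.50 lie lowest and *Atf3* at 0.34 highest. *Jund* is shown by the brighter of its 2 probe sets, which disagreed.

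The genes around AP-1 were read from lists written from textbook knowledge, with earlier results of these data known. Of the other bZIP factors, 14 of 16 were measured and 13 passed the filter, with 0 at 2-fold and a median difference of 0.04. *Batf2*, an interferon-inducible partner of Jun proteins, lay highest, with 6.41 in the array labelled HuR-deficient and 5.73 in the wildtype array. Its difference of 0.67 was above the middle 95% of the nearest genes, which reached 0.59. *Jdp2*, a repressor that pairs with Jun, lay lowest, with 5.10 in the array labelled HuR-deficient and 5.62 in the wildtype array (difference -0.53).

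Among 33 other immediate-early genes measured, 16 differences lay above 0 and 17 below, with a median of -0.02. At 2-fold, 1 of the 31 that passed the filter was higher and 1 lower, against 0.882% and 1.11% of all genes that passed. *Dusp2*, a phosphatase that switches MAP kinases off, had 7.51 in the array labelled HuR-deficient and 5.93 in the wildtype array (difference 1.59). *Plk2*, a Polo-like kinase, had 4.24 in the array labelled HuR-deficient, under the filter, and 5.67 in the wildtype array (difference -1.43). *Egr3* and *Egr4*, the remaining EGR genes, differed by 0.03 and -0.30.

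Upstream of the immediate-early genes, 0 of 14 MAP kinase cascade genes that passed reached 2-fold, with a median of 0.08 over the 16 measured. The kinase genes *Braf* (0.58) and *Map2k4* (-0.57), the second of which activates JNK, the kinase of the Jun protein, marked the ends among those that passed. Of the 8 genes for SRF, its partners and the NAB co-repressors of EGR proteins, 6 lay above 0 and 2 below, with a median of 0.15. *Elk3*, a ternary complex factor, differed by 0.53 and *Elk1* by -0.25, and *Srf* itself had 5.02 in the array labelled HuR-deficient and 4.86 in the wildtype array. Of the 5 measured genes for turnover of AP-1 proteins, 4 lay below 0, with a median of -0.28. They included *Cop1*, a ubiquitin ligase for Jun (-0.52), and *Cops5*, the Jun-binding subunit of the COP9 signalosome (-0.19). None of the 4 that passed the filter reached 2-fold, and the turnover gene above 0 did not pass. Over all genes that passed, 49.3% lay above 0. With so few genes, the sign counts of the SRF and turnover lists show no direction.

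Several genes known as AP-1 targets differed by more than 2-fold. At 2-fold, 1 of the 13 that passed was higher and 4 were lower, against 0.882% and 1.11% of all genes that passed. Yet 9 of the 15 measured lay above 0 and the median was 0.14. This list was written with earlier results for several of its genes known, so its counts are not independent evidence of a direction. *Ptgs2*, which encodes cyclooxygenase-2, had 6.23 in the array labelled HuR-deficient and 5.08 in the wildtype array (difference 1.15). The chemokine gene *Ccl2* differed by -4.49, the metalloproteinase inhibitor gene *Timp1* by -2.46 and the urokinase gene *Plau* by -2.09. *Hmox1*, the heme oxygenase gene, was the other one (-1.63) and was named after its value was seen. The targets share other regulators, and whether AP-1 has a part in their differences was not tested. Of the 8 genes for proteins that bind AU-rich elements, HuR included, 7 passed and none reached 2-fold. They ran among those that passed from *Tia1* (-0.36) to *Zfp36l1* (0.68), whose product promotes decay of such mRNAs.

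**Figure D3:**
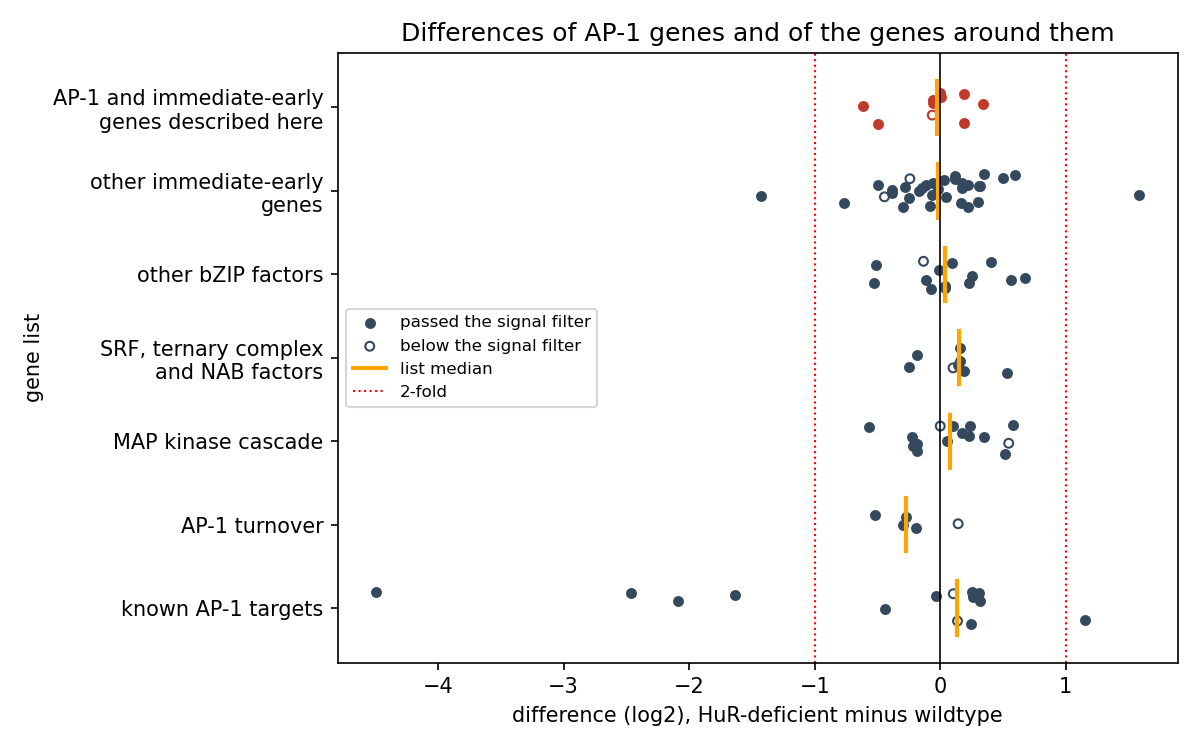
Difference in log2 signal, array labelled HuR-deficient minus wildtype array (horizontal axis), for the genes described here (top) and 6 lists of genes around them (vertical axis); each point is a gene, open where it is below the signal filter, with list medians as orange bars and 2-fold as dotted lines. The genes described here lie between -0.61 and 0.34, while the known AP-1 targets reach -4.49 and 1.15. The target list was written with earlier results for several of its genes known, so its wider range is not independent evidence.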

How the data were processed

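The deposited table held 1 column of log2 values per array, made by the authors with RMA, per the submitters' processing notes. No version or genome build is named in the sources used here, and the values themselves point to a log2 scale. RMA equalises the distribution of the arrays, so a change in total mRNA cannot be seen. No scanner file or detection call was used, and having 1 array per group limits the precision.

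Names came from the platform's gene table, in which 23521 probe sets had 1 symbol (these were used), 1814 several and 16010 none. Where a gene had more than 1 probe set (1082 genes), the brightest on average stood for it. Calls were made at 2-fold and 1.5-fold, with no p-value. The genes and lists were chosen with earlier results of these data known. The 10 genes are given in full. From every other list, the genes at 2-fold (up to 3 per direction) or else those at the ends are named among those that passed the filter, and Egr3, Egr4 and Srf were added as relatives or regulators. Marker lists are given by their counts. The promoter motifs were searched after the values were seen. The alternatives were averaging of probe sets, median centring, repeated quantile normalisation, a loess correction on mean signal (span 0.3), other filters and other thresholds. The counting step was tested on simulated data. Computation used pandas 2.3.3 and numpy 2.4.6 in Python 3.11.15, with statsmodels 0.14.6 for loess and matplotlib 3.10.9 for plots.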

Additional observations from a re-analysis of the deposited data

How the results depend on the processing

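A difference or median was counted as moved at 0.1 or more on the log2 scale, and a count at over 1.5 times. Under centring, a further quantile normalisation, removal of the loess trend and averaging of probe sets, the differences of 9 of the 10 genes stayed within these limits. The exception was *Jund*, which ran from -0.12 with its probe sets averaged to 0.21. Centring subtracted a median of 0, and averaging cannot change a gene with 1 probe set. For the other 9 genes, only the further quantile normalisation and the loess correction could therefore have moved a difference. *Egr2* ran from -0.62 to -0.61, *Jun* from -0.50 to -0.49 and *Atf3* from 0.33 to 0.35. No list median moved except that of fibroblast, epithelial and endothelial markers, which was -0.10 with probe sets averaged, against -0.35. Over all genes, 105 were called higher and 132 lower. These counts were 185 and 232 with no filter, 63 and 86 with the filter at the 75th percentile, 648 and 633 at 1.5-fold, and 22 and 33 at 3-fold. At 1.5-fold, 1 of the AP-1 and immediate-early genes was lower (*Egr2*), 1 other bZIP gene was higher, 2 other immediate-early genes were higher and 2 lower, and 1 AU-rich element binding gene was higher. At 3-fold, 0 other immediate-early genes were lower, 0 AP-1 targets higher and 0 macrophage markers higher. With the filter at the 75th percentile, a signal of 5.61, 6 of the 10 genes passed. *Fos*, *Fosb*, *Fosl2* and *Egr1* did not. *Jun* (5.74) and *Egr2* (5.62) passed by their wildtype values only. In the array labelled HuR-deficient they had 5.24 and 5.01, under this stricter filter. Such moves in counts follow from the setting itself. No paired analysis was possible because each group has 1 array and the labels give no replicate numbers. Depth is not defined for arrays. Low signals were not shown to lie above background, which holds for *Fosb* and also for *Fosl2*, which passed the filter. *Fosl2* on both arrays, and *Egr2* on the array labelled HuR-deficient, lay under the highest signals of the markers of other cell types. On the wildtype array *Fos* (5.43) and *Egr1* (5.40) lay close to the highest of those markers (5.39). On the array labelled HuR-deficient *Jun* (5.24) lay little above the highest of them (5.13).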
